A study of Mus musculus with 9 samples.

Results

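Pericytes are the contractile cells that wrap capillaries, and 10 genes tied to them were followed in sorted cells of mouse mammary tumours. The genes are Rgs5, Rgs4, Kcnj8, Abcc9, Pdgfb, Pdgfrb, Cspg4, Mcam, Anpep and Des. All but Pdgfb, which encodes a ligand that acts on pericytes, are in use as pericyte markers. Every probe that the array's own annotation assigns to 1 of these 10 genes was taken, which gave 19 of 41174 probes and 10 of 27573 genes. The genes were chosen by name with their measured log2 ratio and Cy5 differences between the groups in view, so those values are a description and carry no p-value.

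The label of every array names MMTV Wnt-1 and MMTV-Her2 tumours, which arise in transgenic mice where the mouse mammary tumour virus promoter directs expression of Wnt-1, a secreted ligand, or of Her2, a receptor tyrosine kinase, mainly to mammary epithelium. Cells taken fresh from the tumours had been sorted by flow cytometry for lack of green fluorescent protein (GFP-). There were 5 arrays of cells treated with Fzd8-CRD, the soluble ligand-binding domain of the receptor Frizzled 8, which binds Wnt proteins and keeps them from the cell surface. There were 4 control arrays. Because each label names both tumour models, the models cannot be told apart. The inhibitor stands in the treatment protocol of the controls too, and the sources used here do not say what the controls received, nor the dose, time, age or which cells carried GFP. The design text calls the arrays biological replicates but does not tie them to separate animals, and p-values measure only the spread between these arrays.

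Pericytes share a basement membrane with the endothelium. Endothelial cells secrete the growth factor PDGF-B, and pericytes respond through the receptor PDGFR-beta, which recruits them to new vessels and keeps them there. Kcnj8 and Abcc9 encode the pore and the regulatory subunit of an ATP-sensitive potassium channel that sets mural cell tone. Rgs5 and Rgs4 encode proteins that speed up GTP hydrolysis by G-protein alpha subunits and so shorten receptor signals. Several of the other markers are also made outside pericytes: Mcam by endothelium, Anpep by myeloid and fibroblastic cells, and Des by muscle.

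Each array compares RNA of the sorted cells, labelled with Cy5, with a pooled reference RNA, labelled with Cy3, on printed probes of 60 bases. The log2 ratio of Cy5 to Cy3 is positive where the tumour cells gave more signal than the reference. The probes below carried the differences described further on. For each, the 30 bases at its 5′ end are shown in lower case, as stored in the scanner files, with mm8 coordinates of the whole probe. Whether a probe lies in a coding exon or a UTR was not determined, because no annotation of that build was used here.
Rgs5 A_52_P136782, chr1:171529565-171529624, plus strand: agagtaccgctgtgttatctggacattctc
Rgs5 A_51_P354934, chr1:171531362-171531421, plus strand: gaatgaaggagaatcaaactgcatcttgct
Rgs4 A_52_P43326, chr1:171579092-171579151, minus strand: ctacatctgtaaagcatcatcggggggaaa
Kcnj8 A_51_P312795, chr6:142522706-142522765, minus strand: actgtgtcctgatgactgagagacaatccg
Kcnj8 A_52_P225898, chr6:142522189-142522248, minus strand: cacgggtcatcatgaatatgttcaaatcta
Abcc9 A_51_P328850, chr6:142546439-142546498, minus strand: tacttgggcaaatttcagtgataggcattg
Pdgfb A_51_P175262, chr15:79823963-79824022, minus strand: acatgaactcctctgggcaggtggccacaa
Pdgfb A_52_P618427, chr15:79823152-79823211, minus strand: ggctttctttttattttttaaatgtaaagt

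Rgs5 and Rgs4 are next to each other among the protein-coding genes of chromosome 1, and Kcnj8 and Abcc9 are next to each other on chromosome 6. For these 4 genes the ratios of Fzd8-CRD and control arrays did not overlap, all Fzd8-CRD arrays being lower, as for 11.7% of all genes. In Cy5 alone the groups overlapped for Abcc9. The members were chosen with this contrast known, and regulation shared between neighbours was not tested. The 250 bases upstream of the RefSeq start of 3 of the 4 genes (GRCm38.p6) are printed as a description. Capitals mark a TATAAA motif, or a CCAAT motif, which reads ATTGG where it lies on the opposite strand.
Rgs5, chr1:169655251-169655500, plus strand: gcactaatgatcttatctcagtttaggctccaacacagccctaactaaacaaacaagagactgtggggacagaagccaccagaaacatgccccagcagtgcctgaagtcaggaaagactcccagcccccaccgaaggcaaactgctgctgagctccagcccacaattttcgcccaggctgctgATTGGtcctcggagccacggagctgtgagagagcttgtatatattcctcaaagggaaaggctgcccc
Rgs4, chr1:169747643-169747892, minus strand: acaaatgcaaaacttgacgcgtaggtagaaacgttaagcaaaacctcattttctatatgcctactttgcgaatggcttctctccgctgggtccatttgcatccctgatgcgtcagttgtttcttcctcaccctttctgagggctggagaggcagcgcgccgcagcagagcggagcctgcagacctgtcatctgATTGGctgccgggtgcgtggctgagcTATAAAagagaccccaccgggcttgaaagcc
Kcnj8, chr6:142571615-142571864, minus strand: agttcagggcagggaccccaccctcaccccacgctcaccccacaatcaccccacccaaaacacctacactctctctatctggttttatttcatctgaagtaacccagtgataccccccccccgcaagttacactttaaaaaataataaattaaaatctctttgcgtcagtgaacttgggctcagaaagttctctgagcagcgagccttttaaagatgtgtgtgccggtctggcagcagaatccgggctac
The motifs searched on both strands were TATAAA (the TATA box), CCAAT (the CCAAT box) and the core of the site for the Notch partner RBPJ (TGGGAA), and no matches overlapped. The Rgs5 window held CCAAT 67 bases upstream of the start and the Rgs4 window held it 57 bases upstream, each on the strand opposite to the gene. The Rgs4 window also held TATAAA 31 bases upstream, and the Kcnj8 window held none of the 3 motifs. The Abcc9 window, not printed, held TGGGAA 221 bases upstream and neither of the others. Of 32851 mouse promoter windows of this length, 33.8% held CCAAT, 12.4% held TATAAA and 21.6% held TGGGAA.

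The 4 control arrays lay on 1 slide with 1 scan day, whereas those of Fzd8-CRD cells filled 4 other slides with scan days 367 or 378 days later, so slide and treatment cannot be told apart. The share of probes with Cy5 signal well above background was 52.5% to 60.0% for Fzd8-CRD arrays and 63.8% to 70.8% for control arrays. In the reference channel, 59.1% of 18212 genes differed between the groups (limma, Benjamini-Hochberg adjusted p under 0.05 over all genes, here called the threshold). Cy5 was therefore also compared by itself after quantile normalization. Control replicate 2 stood apart, with correlations of 0.62 to 0.74 with the other arrays over genes, and the counts of each list are given with and without it. All 6 epithelial markers tested (Epcam, Krt8, Krt18, Krt5, Krt14 and Cdh1) were well above background on all 9 arrays.

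All 10 genes passed the filter on dim probes, through 18 of the 19 probes, and each gene is represented by its brightest probe. Rgs4 and Des cleared background on 2 of 5 Fzd8-CRD arrays and 4 of 4 control arrays, so they passed the filter through the control arrays. Rgs5, Kcnj8, Abcc9 and Rgs4 were lower in Fzd8-CRD cells, with no overlap between the groups (as for 11.7% of all genes), while Pdgfrb, Pdgfb, Cspg4, Mcam, Anpep and Des overlapped. By the count over all genes, 4 of 10 members passed the threshold as lower and 0 as higher, where 7.76% of all genes were lower and 6.6% higher. Cy5 alone gave 4 lower and 0 higher beside 8.73% and 10.1% of all genes, with Abcc9 the nearest of the 4 to the threshold. Without control replicate 2 the counts of lower members were 4 by the ratio (9.58% of all genes) and 3 by Cy5 (10.2%). The median difference of the 10 members was -0.63, against -0.07 over all genes. These counts use the contrast in which the genes were chosen, and nothing is read from them.

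**Figure D1:**
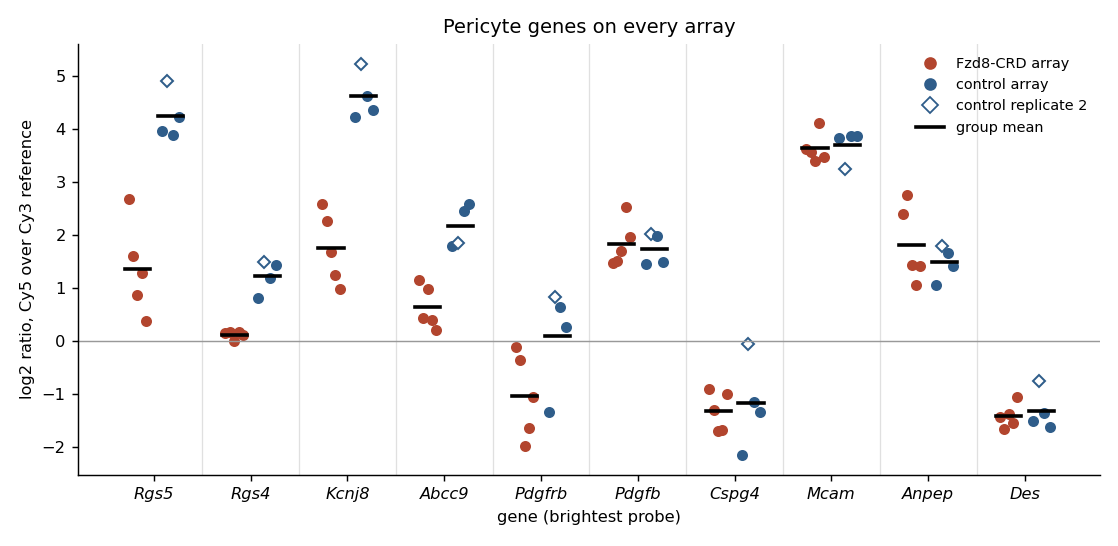
Log2 ratio of Cy5 over the Cy3 reference (vertical axis) of the brightest probe of each of 10 pericyte genes (horizontal axis), with Fzd8-CRD arrays as red points left of the control arrays in blue, control replicate 2 as an open diamond and group means as bars. The points of Rgs5, Rgs4, Kcnj8 and Abcc9 separate by group, and those of the other 6 genes overlap.

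Rgs5, the regulator of G-protein signalling most often used to find pericytes in tissue, had log2 ratios of 2.67, 1.60, 0.86, 1.28 and 0.38 on the Fzd8-CRD arrays, against 3.96, 4.90, 3.89 and 4.22 on the control arrays. The highest Fzd8-CRD array, replicate 1, remained below the lowest control array. The mean was 1.36 ± 0.87 in Fzd8-CRD cells (SD, n = 5) and 4.24 ± 0.46 in control cells (SD, n = 4), a difference of -2.89 (SE 0.42) that was -2.67 without control replicate 2. Fzd8-CRD replicate 2, the 1 array of the latest scan day, lay between the other Fzd8-CRD arrays. In bulk RNA, fewer pericytes and less Rgs5 RNA per cell cannot be told apart.

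The sample channel alone showed the same separation for Rgs5. Log2 Cy5 was 9.05, 7.75, 7.58, 7.92 and 7.33 in Fzd8-CRD cells, against 9.89, 10.71, 9.91 and 10.18 in control cells, a difference of -2.25 (SE 0.33). The second Rgs5 probe had ratios of 0.94, 0.32, 0.20, 0.37 and 0.26 in Fzd8-CRD cells, against 1.89, 2.69, 3.09 and 3.15 in control cells, again without overlap. The reference gave little signal at these probes, each well above background in Cy3 on 4 of 9 arrays. The size of the ratio depended on how that dim channel was handled: with the scanner's own log ratio the difference of the main Rgs5 probe was -0.45. By that ratio the groups overlapped, with the highest Fzd8-CRD array at 5.96 and the lowest control array at 5.08. There the scanner's processed Cy5 signal was 239 to 1720 in Fzd8-CRD cells and 4472 to 7077 in control cells. Its Cy3 value was 8.07 to 41.6 on Fzd8-CRD arrays and 64.0 to 175 on control arrays. On 3 of 5 Fzd8-CRD arrays and 0 of 4 control arrays that Cy3 value was a surrogate set by the scanner software.

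Rgs4, which is next to Rgs5 in the genome and encodes a regulator of the same R4 subfamily, had log2 ratios of 0.15, 0.17, 0.00, 0.17 and 0.10 in Fzd8-CRD cells, against 0.80, 1.49, 1.18 and 1.44 in control cells. The difference was -1.11 (SE 0.15), and the Cy5 difference was -0.69 (SE 0.14). Cy5 signal was clear of background on 2 of 5 Fzd8-CRD arrays and 4 of 4 control arrays, so the Fzd8-CRD values lie at the edge of detection. The other Rgs4 probe was not well above background in any Fzd8-CRD sample, and cleared it on 2 of 4 control arrays. Its bound, brighter over dimmer group mean, was at least 1.13-fold lower in Fzd8-CRD cells. Such bounds set a dim array at the lowest signal well above background and are open to dye bias.

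Of the rest of the R4 subfamily, 4 of 8 listed genes could be tested and 0 passed the threshold in either direction by limma on the ratio, with or without control replicate 2, while 1 gene (Rgs1) had an unadjusted p under 0.05. Rgs2, an inhibitor of Gq signalling in vascular smooth muscle, differed by 0.62 (SE 0.36, adjusted p = 0.26), and Rgs1, best known from lymphocytes, by -1.496 (SE 0.61, adjusted p = 0.12). Rgs16 differed by -0.34 (adjusted p = 0.61) and Rgs3 by -0.22 (adjusted p = 0.59). The other Rgs3 probes differed by -1.04 to 0.03, and the other Rgs2 probe by -0.19. Rgs8, Rgs13 and Rgs18 did not pass the filter on dim probes, and Rgs21 had no probe on the array.

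Kcnj8, the Kir6.1 pore subunit of the vascular potassium channel, had log2 ratios of 2.59, 2.25, 1.67, 1.24 and 0.99 in Fzd8-CRD cells, against 4.23, 5.23, 4.62 and 4.36 in control cells. All 5 Fzd8-CRD arrays were below all 4 control arrays. The mean was 1.75 ± 0.67 in Fzd8-CRD cells and 4.61 ± 0.44 in control cells (SD), a difference of -2.86 (SE 0.35) that was -2.65 without control replicate 2. Kcnj8 was well above background in Cy5 on all 9 arrays, and its Cy5 difference was -1.84 (SE 0.26) with a Cy3 difference of 0.03. At this probe the reference was well above background in Cy3 on 3 of 9 arrays, and the scanner's log ratio gave a difference of -2.19. The dimmer Kcnj8 probe differed by -0.92, with signal clear of background on 1 of 5 Fzd8-CRD arrays.

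Abcc9, the SUR2 regulatory subunit that assembles with Kcnj8, had log2 ratios of 1.14, 0.42, 0.99, 0.40 and 0.20 in Fzd8-CRD cells, against 1.79, 1.85, 2.46 and 2.59 in control cells. The difference was -1.54 (SE 0.25), with no overlap between the groups. At each Abcc9 probe the reference was well above background in Cy3 on 0 of 9 arrays, so the size of the ratio depended on how that dim channel was handled. With the scanner's log ratio the difference was -2.54. In Cy5 alone the difference was -0.77 (SE 0.24), and there Fzd8-CRD replicate 3, at 7.74, exceeded control replicate 1, at 7.70. Both dimmer Abcc9 probes were lower as well, with a difference of -0.66 where 1 of 5 Fzd8-CRD arrays gave signal above background and of -0.65 where 0 of 5 did, where the bound was at least 1.38-fold lower in Fzd8-CRD cells.

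Relatives of this channel moved in both directions. Abcc8, the SUR1 subunit of the beta cell and neuronal channel, fell in Fzd8-CRD cells by 1.18 on the log2 scale (SE 0.28, adjusted p = 0.025). Abcc5, an exporter of cyclic nucleotides, rose by 0.80 (SE 0.16, adjusted p = 0.012). Kcnj11, the Kir6.2 pore that pairs with SUR1, differed by -0.12 (adjusted p = 0.48), and Kcnj12 by -0.07 (adjusted p = 0.76). Kcnj11 cleared background on 0 of 5 Fzd8-CRD arrays and 4 of 4 control arrays, so it passed the filter through the control arrays. Kcnj12 cleared it on 2 of 5 and 3 of 4. In all, 4 of 5 listed relatives could be tested, of which 1 rose and 1 fell. Kcnj2 did not pass the filter. The Abcc5 difference was 0.42 in Cy5 alone (adjusted p = 0.074), with a Cy3 difference of -0.46. Cy5 alone gave 0 higher and 1 lower, and the ratio without control replicate 2 again 1 of each.

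Pdgfrb, the receptor that recruits pericytes, had log2 ratios of -0.12, -0.36, -1.98, -1.64 and -1.06 in Fzd8-CRD cells, against -1.34, 0.82, 0.65 and 0.26 in control cells. Control replicate 1 fell among the Fzd8-CRD arrays, and the other 3 control arrays lay above all 5 of them. The difference was -1.13 (SE 0.51), and -1.61 without control replicate 1. In Cy5 alone the difference was -0.58 (SE 0.49), and the reference channel differed by 0.46.

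Pdgfb, its ligand, did not separate the groups by the ratio of its brighter probe, with values of 1.47, 1.50, 1.70, 2.53 and 1.95 in Fzd8-CRD cells, against 1.46, 2.02, 1.98 and 1.49 in control cells. The difference was 0.10 (SE 0.24). The other Pdgfb probe gave 0.65 (SE 0.23) by the ratio and 1.52 (SE 0.24) by Cy5 alone. On that scale its groups did not overlap, at 8.92, 10.14, 9.99, 9.75 and 9.84 in Fzd8-CRD cells, against 8.004, 8.01, 8.46 and 8.34 in control cells. The reference channel was also higher on the Fzd8-CRD arrays at both probes, by 0.40 and 0.47.

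**Figure D2:**
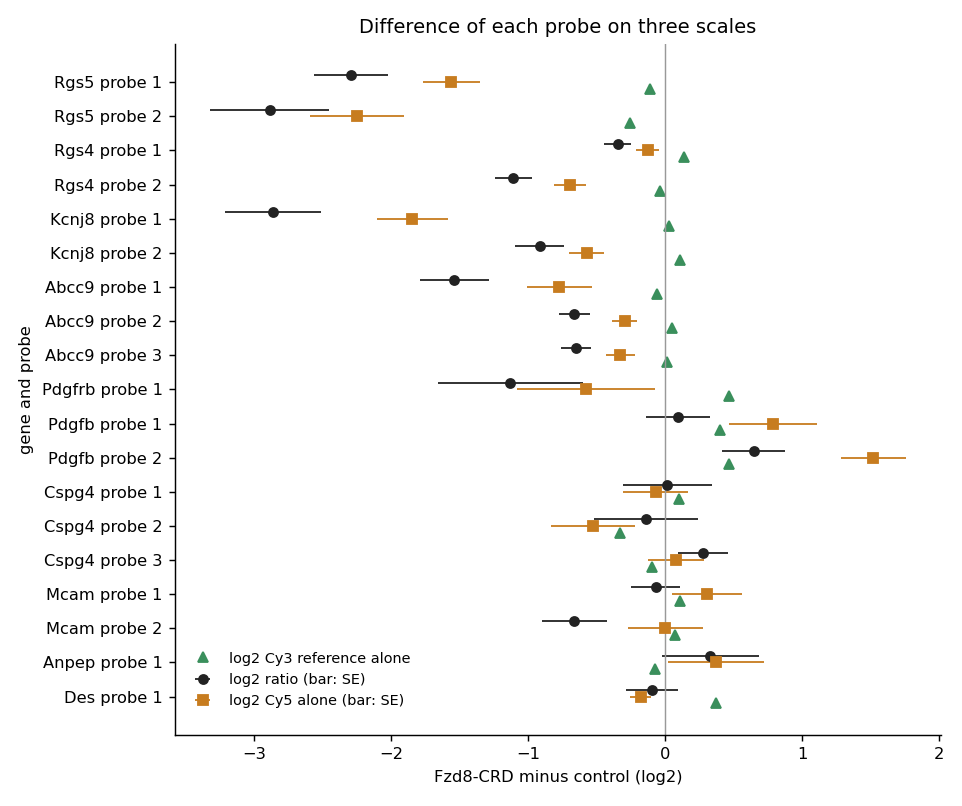
Fzd8-CRD minus control difference in log2 units (horizontal axis) of all 19 probes of the pericyte genes (vertical axis), as the ratio (black circles), Cy5 alone (orange squares) and the Cy3 reference alone (green triangles), with bars of 1 SE. Every probe of Rgs5, Rgs4, Kcnj8 and Abcc9 lies left of 0 by the ratio and by Cy5, and the Pdgfb probe A_52_P618427 reaches 1.52 by Cy5.

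The surface proteins did not separate the groups. Cspg4, the NG2 proteoglycan, had ratios of -0.90, -1.31, -1.70, -1.67 and -1.01 in Fzd8-CRD cells, against -2.16, -0.07, -1.15 and -1.33 in control cells, a difference of -0.14 (SE 0.37). The control arrays alone spanned more than the 5 Fzd8-CRD arrays, with replicates 1 and 2 at the ends, and without control replicate 2 the difference was 0.23. The other Cspg4 probes differed by 0.02 and 0.28, the second of them below a clear signal on each Fzd8-CRD array.

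Mcam, the adhesion molecule CD146, had ratios of 3.61, 3.56, 3.39, 4.11 and 3.47 in Fzd8-CRD cells, against 3.83, 3.25, 3.86 and 3.86 in control cells. The difference was -0.07 (SE 0.19). Its sign is not fixed: it was 0.27 with the scanner's log ratio and 1.61 after the arrays were scaled to a common spread, and its second probe differed by -0.66 with overlapping groups. Anpep, the peptidase CD13, had ratios of 2.40, 2.75, 1.43, 1.06 and 1.41 in Fzd8-CRD cells, against 1.06, 1.78, 1.66 and 1.42 in control cells. Fzd8-CRD replicates 1 and 2 were the highest of the 9 arrays and the other 3 lay among the controls, with a difference of 0.33 (SE 0.35).

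Des, the intermediate filament desmin, had ratios of -1.44, -1.66, -1.37, -1.56 and -1.06 in Fzd8-CRD cells, against -1.52, -0.76, -1.37 and -1.63 in control cells, a difference of -0.10 (SE 0.20). Its probe cleared background on 2 of 5 Fzd8-CRD arrays and 4 of 4 control arrays. By the scanner's log ratio the difference was -1.45, with a processed Cy5 signal of 55.2 to 97.6 in Fzd8-CRD cells and 137 to 247 in control cells. Cy5 alone gave -0.18 (SE 0.11), with values of 6.69, 6.67, 6.64, 6.70 and 6.67 in Fzd8-CRD cells, against 6.73, 7.03, 6.94 and 6.71 in control cells.

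Genes of mural cells outside the 10 members were also counted. This list, like the other lists, was written with earlier results of these data known, so its counts and p-values are a description. Of 18 tested of 20 listed, 8 fell and 0 rose in Fzd8-CRD cells (10 and 0 at an unadjusted p under 0.05). Over all genes 7.76% were lower and 6.6% higher. The median was -0.61 against -0.07 over all genes. Cy5 alone gave 7 lower and 1 higher, beside 8.73% and 10.1% of all genes, and a median of -0.42. The 1 higher was Ednra, at 1.27 (adjusted p = 0.014), without overlap between the groups. Higd1b, a marker of capillary pericytes, fell by 2.19 (SE 0.28, adjusted p = 0.0039), with ratios of 1.28, 0.77, 0.26, 0.31 and 0.18 in Fzd8-CRD cells, against 2.03, 3.02, 2.95 and 3.00 in control cells. The groups did not overlap. Gucy1a1, a subunit of the nitric oxide receptor guanylate cyclase, fell by 1.68 (SE 0.34, adjusted p = 0.014), with clear signal on 3 of 5 Fzd8-CRD arrays. Art3, an ADP-ribosyltransferase family member, fell by 1.16 (SE 0.21, adjusted p = 0.0092). Enpep, the angiotensin-cleaving aminopeptidase A, was at least 1.50-fold lower (adjusted p = 0.0054), a bound because its signal did not clear background in any Fzd8-CRD sample.

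Among the other mural genes that fell were S1pr3, Gja4, Vtn and Trpc6, named here after their values were seen, with differences of -1.12, -1.10, -0.80 and -0.68. Art3, Vtn and Trpc6 each cleared background on 1 of 5 Fzd8-CRD arrays and 4 of 4 control arrays, so they and Enpep passed the filter through the control arrays. Heyl, a Notch target of mural cells, differed by -2.24 without passing the threshold (adjusted p = 0.087). Its control ratios of 0.99, 5.81, 2.35 and 2.18 were spread by control replicate 2, against 0.82, 0.96, 0.62, 0.26 and 0.29 in Fzd8-CRD cells. Without that array Heyl fell by 1.25 (adjusted p = 0.030). Steap4, a metalloreductase, differed by -0.55 (adjusted p = 0.28). Notch3, the receptor upstream of Heyl in mural cells and also named after its value was seen, differed by 0.12 (adjusted p = 0.85). Ednra, Gucy1b1, Ebf1, Ebf2, Foxs1, Tbx18 and Itga7, likewise named after their values were seen, did not pass by the ratio. Their differences were 0.46, -0.09, -0.09, -0.43, -0.26, -0.34 and -0.26. Ebf1 did not clear background in any Fzd8-CRD sample. Without control replicate 2, 10 of the 18 fell and 0 rose (9.58% and 7.38% of all genes). Only 3 fell among probes above background on all arrays, 5 with the scanner's log ratio, and 2 when the closest pairs of arrays in each group were averaged.

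Contractile smooth muscle genes are shared only in part by pericytes and are also made by myoepithelial cells of the breast. Of 14 tested, 4 rose and 1 fell in Fzd8-CRD cells, with a median of 0.94. Tagln, the actin-bundling protein transgelin, rose by 1.62 (SE 0.33, adjusted p = 0.013), and Lmod1, an actin filament nucleator, rose by 1.49 (SE 0.25, adjusted p = 0.0081). Cald1, the actin-binding caldesmon, rose by 1.20 (SE 0.27, adjusted p = 0.020) on the ratio, but its Cy5 difference was -0.01 and its Cy3 difference -1.28. Myocd, the transcription factor myocardin that drives smooth muscle genes, fell by 1.09 (SE 0.26, adjusted p = 0.026), with clear signal on 1 of 5 Fzd8-CRD arrays. Myh11 and Myl9, smooth muscle myosin chains, differed by 1.13 (adjusted p = 0.070) and 1.51 (adjusted p = 0.10). Cy5 alone gave 4 higher and 0 lower, but the genes were partly others. They were Tagln, Lmod1, Myh11 (2.14, adjusted p = 0.012) and Tpm2 (1.37, adjusted p = 0.013). Cnn1, the remaining gene higher by the ratio (1.03, adjusted p = 0.039), did not pass by Cy5 (adjusted p = 0.056). Tpm2 and Cnn1 are named here after their values were seen. The ratio without control replicate 2 gave 3 higher and 1 lower. The summed Cy5 intensity of the 14 genes was 172086 to 458010 on Fzd8-CRD arrays, against 78035 to 221002 on control arrays.

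The rest of the PDGF family held 1 gene past the threshold by the ratio. Pdgfd, a ligand that activates PDGFR-beta after its CUB domain is cleaved, had ratios of 0.65, 0.73, 0.26, 0.37 and 0.24 in Fzd8-CRD cells, against 1.68, 1.58, 1.77 and 1.79 in control cells. It fell by 1.26 (SE 0.14, adjusted p = 0.0023), without overlap between the groups. Pdgfa, a ligand of PDGFR-alpha, differed by 0.47 (adjusted p = 0.14), Pdgfc by 0.09 (adjusted p = 0.85) and the receptor-like Pdgfrl by 1.11 (adjusted p = 0.076). Pdgfra, the receptor of fibroblasts and mesenchyme, differed by 0.81 (adjusted p = 0.16), and by 1.20 without control replicate 2, past the threshold (adjusted p = 0.015). By the ratio 1 of 5 fell and 0 rose, and without control replicate 2 the counts were 1 and 1. Cy5 alone also gave 1 lower and 1 higher, the higher one being Pdgfa at 0.75 (adjusted p = 0.022) without overlap between the groups. The other Pdgfa probe, above background on all arrays, differed by -0.05 by the ratio.

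Among 13 signals exchanged between endothelium and mural cells, 4 fell and 2 rose. Angpt2, the angiopoietin that endothelium releases when vessels are remodelled, had ratios of 0.18, -0.35, -0.31, -0.61 and -0.37 in Fzd8-CRD cells, against 1.60, 1.44, 1.98 and 1.99 in control cells. It fell by 2.05 (SE 0.18, adjusted p = 0.0012). S1pr1, the endothelial receptor for sphingosine 1-phosphate, fell by 1.62 (SE 0.16, adjusted p = 0.0018). Dll4, a Notch ligand of sprouting and arterial endothelium, fell by 1.23 (SE 0.24, adjusted p = 0.012), and Acvrl1, an endothelial TGF-beta family receptor, by 1.04 (SE 0.15, adjusted p = 0.0049). The 2 that rose, named here after their values were seen, were Sphk1, a kinase that makes sphingosine 1-phosphate, by 1.31 (SE 0.28, adjusted p = 0.017), and Cdh2, the N-cadherin that joins pericytes to endothelium, by 1.36 (SE 0.37, adjusted p = 0.040). Cdh2 did not pass without control replicate 2 (adjusted p = 0.072) or by Cy5 (adjusted p = 0.054). Without that array 5 fell and 1 rose, and by Cy5 alone 3 fell and 2 rose. The Notch ligand Jag1 differed by 0.87 (adjusted p = 0.063), and the constrictor peptide Edn1 by -1.36 (adjusted p = 0.081). In Cy5 alone Jag1 was higher by 1.43 (adjusted p = 0.022), without overlap between the groups. The other Jag1 probe differed by -0.0004 by the ratio. Angpt1, the ligand that pericytes supply, did not pass the filter on dim probes.

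**Figure D3:**
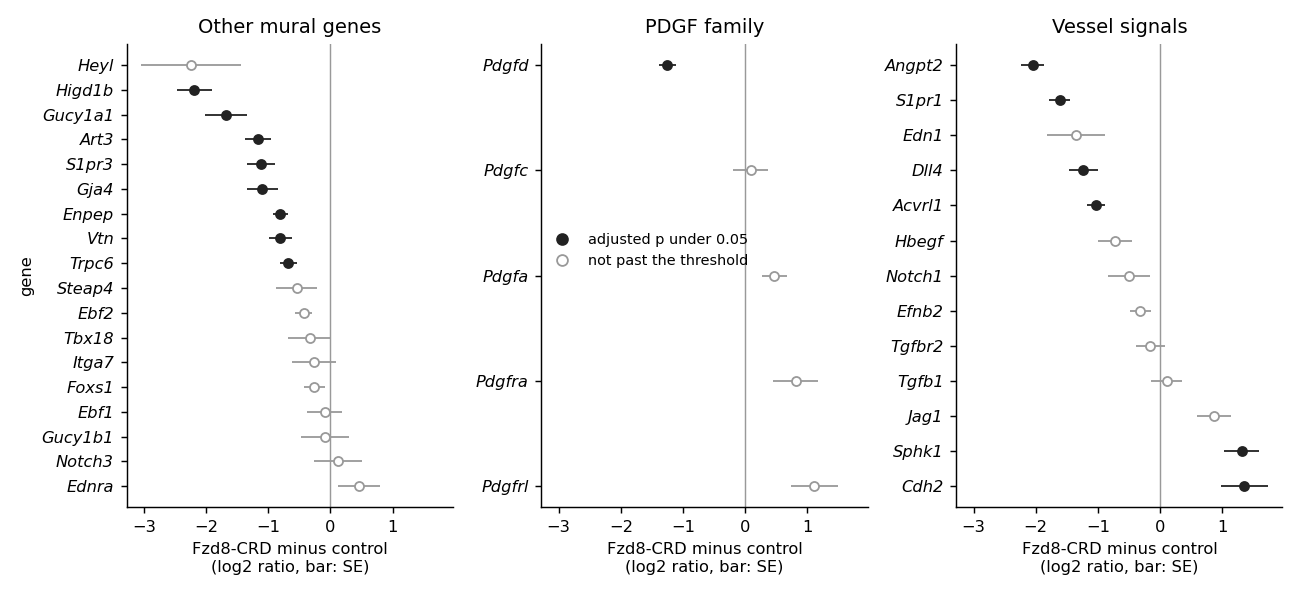
Fzd8-CRD minus control difference in log2 ratio (horizontal axes) with bars of 1 SE for other mural genes, the PDGF family and vessel signals (vertical axes), filled where the adjusted p was under 0.05. Angpt2 (-2.05), Higd1b (-2.19) and Pdgfd (-1.26) lie to the left among the filled points, and Heyl (-2.24) is open.

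Markers of other cell types were counted in the same way, beside 7.76% of all genes lower and 6.6% higher by the ratio. Of 19 endothelial genes tested, 18 fell and 0 rose, with a median of -1.76; Eng differed by -0.13. Erg, an endothelial transcription factor, fell by 2.24 (SE 0.30, adjusted p = 0.0043), and Pecam1, the adhesion molecule CD31, fell by 1.23 (SE 0.15, adjusted p = 0.0031). The summed Cy5 intensity of the 19 genes was 5266 to 10745 on Fzd8-CRD arrays, against 16758 to 26183 on control arrays. Pecam1 signal cleared background on 2 of 5 Fzd8-CRD arrays. Cy5 alone gave 18 lower and 0 higher, and without control replicate 2, 16 fell by the ratio and 0 rose.

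Red cell genes had the lowest median of the lists tested. Of 4 tested, 3 fell, with a median of -3.65, among them the globin genes Hbb-bt (-6.47, SE 1.12, adjusted p = 0.0086) and Hba-a1 (-4.31, SE 0.69, adjusted p = 0.0066). Their summed Cy5 intensity was 479 to 1805 on Fzd8-CRD arrays, against 11116 to 856863 on control arrays, with control replicate 2 the highest by the list's median. Of 12 fibroblast genes 2 fell, Thy1 by 1.95 (adjusted p = 0.013) and Fap by 0.90 (adjusted p = 0.018), and the median was -1.10 with summed Cy5 of 22642 to 55905 on Fzd8-CRD arrays and 25146 to 141819 on control arrays. Without control replicate 2 the ratio gave 3 lower red cell genes and 2 lower fibroblast genes, and Cy5 alone over all arrays gave 2 and 3. The part of endothelial, red cell and fibroblast RNA in the lower values of Rgs5, Kcnj8, Abcc9 and Rgs4 was not tested.

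In the remaining lists several calls held on 1 scale only. Of 8 macrophage genes 1 fell (Mrc1, -0.70, adjusted p = 0.038), but 0 passed without control replicate 2 (Mrc1 adjusted p = 0.063) or by Cy5 (0.067), and Mrc1 cleared background on 1 of 5 Fzd8-CRD arrays. At an unadjusted p under 0.05, 5 macrophage genes were lower by the ratio. Of 8 lymphocyte genes 0 passed by limma (1 at an unadjusted p under 0.05), and without control replicate 2 Cd3e fell by 0.44 (adjusted p = 0.018). Of 5 Schwann and oligodendrocyte genes 1 fell (S100b, -0.64, adjusted p = 0.042). Sox10, a transcription factor of these cells, differed by 0.52 (adjusted p = 0.091), and was higher by 1.34 in Cy5 alone (adjusted p = 0.00077) and by 0.68 without control replicate 2 (adjusted p = 0.022). The other Sox10 probe, above background on all arrays, differed by -0.03 by the ratio. Of 7 skeletal muscle genes 1 rose (Acta1, 1.30, adjusted p = 0.024), and Cy5 alone and the ratio without control replicate 2 each gave 1 higher and 1 lower.

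Of 6 epithelial genes 1 rose by the ratio (Krt5, 0.80, adjusted p = 0.0071), where the Cy5 difference was 0.05 (adjusted p = 0.88) and the Cy3 difference -0.80. Cy5 alone called 0 epithelial genes, and the ratio without control replicate 2 called 2 higher. Of 8 basement membrane genes, 2 rose by the ratio. Lamb1, a laminin chain, rose by 1.09 (adjusted p = 0.019), with a Cy5 difference of 0.67 (adjusted p = 0.080) and a Cy3 difference of -0.52. Col4a1, a collagen IV chain, rose by 1.19 (adjusted p = 0.046), and did not pass by Cy5 (adjusted p = 0.053) or without control replicate 2 (adjusted p = 0.055), which left 1 higher. By Cy5 alone 0 of the 8 were higher and 1 was lower, Nid2 at -1.01 (adjusted p = 0.0069), named here after its value was seen. Beside these counts, 14.4% of all genes passed in either direction.

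Array by array, the median of the pericyte genes about their own means was -0.06, -0.29, -0.39, -0.52 and -0.38 in Fzd8-CRD cells, against 0.01, 0.75, 0.38 and 0.49 in control cells. Control replicate 1 was the lowest control and nearest to Fzd8-CRD replicate 1. The endothelial median was -0.39, 0.20, -1.34, -0.97 and -1.49 in Fzd8-CRD cells, against 0.71, 1.46, 0.94 and 0.89 in control cells. The fibroblast median was 0.15, -0.33, -0.82, -0.75 and -0.54 in Fzd8-CRD cells, against -0.75, 1.29, 1.13 and 0.65 in control cells. Control replicate 1 was thus low for fibroblast genes and, as above, for Pdgfrb. It was also the lowest control array for Kcnj8 (4.23), Abcc9 (1.79) and Rgs4 (0.80), and at the second Rgs5 probe (1.89). At the main Rgs5 probe its ratio, 3.96, lay just above that of control replicate 3, 3.89, but in Cy5 alone it was the lowest control, at 9.89.

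**Figure D4:**
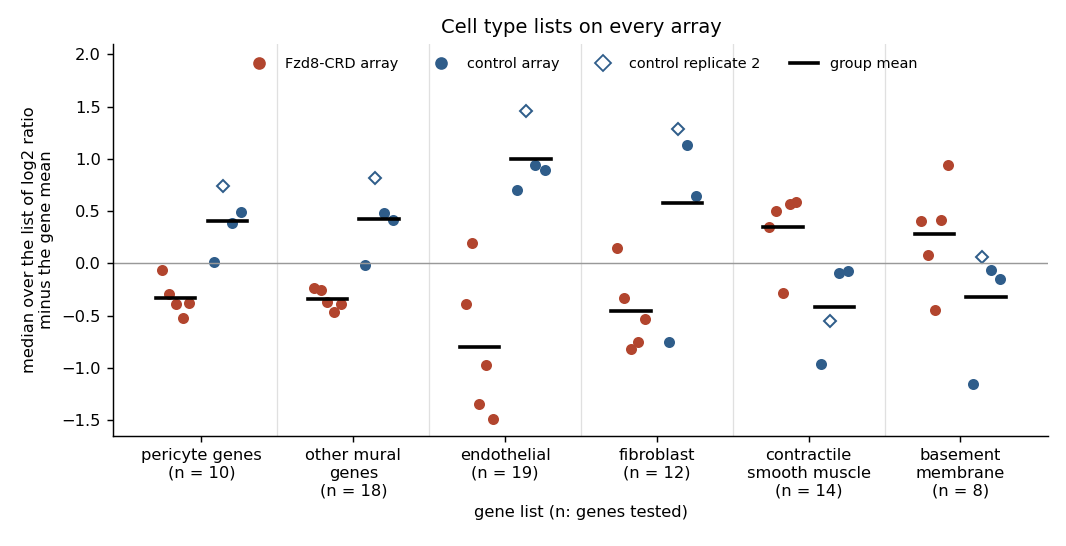
Median over each gene list of the log2 ratio minus the gene's mean over the 9 arrays (vertical axis) for 6 lists (horizontal axis), with Fzd8-CRD arrays in red left of the control arrays in blue, control replicate 2 as an open diamond and group means as bars. Pericyte, other mural and endothelial medians separate by group, contractile smooth muscle and basement membrane medians are higher on most Fzd8-CRD arrays, and fibroblast medians overlap through control replicate 1 at -0.75.

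Within the 10 genes, Rgs5 and Kcnj8 had the most similar profiles over the 9 arrays, with a root mean square difference of 0.32 log2 units between their centred ratios. Among all other genes, those nearest to Rgs5 were Ctla2a (0.44), the endothelial tight junction gene Cldn5 (0.45), the matricellular gene Sparcl1 (0.47), Plbd1 (0.48) and the cytokine Il6 (0.48), where the median gene lay at 1.55. Those nearest to Pdgfrb were Cd248 (0.18), which encodes the stromal surface protein endosialin, the collagen gene Col8a1 (0.23), Cpxm1 (0.30), the cyclin gene Ccna2 (0.30) and Lgals3bp (0.31), where the median gene lay at 0.97. All of these profiles come from the same 9 arrays and share their slides and the split into groups.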

How the data were processed

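Per the file headers, Agilent Feature Extraction 9.5.3.1 wrote the mean intensity and the local background median of every spot in both dyes. Its own log10 ratio of Cy5 to Cy3 was deposited in the same files. The deposited series table holds linear ratios for the same arrays. Background was corrected with normexp (offset 50) and ratios were loess-normalized within each array (limma 3.58.1, R 4.3.3, statmod 1.5.0; version 1.17.8 of data.table). The offset understates differences of dim genes. Outlier spots (1229) were left out, 0 were saturated, and 0 columns of other samples were present. Spots of a probe were averaged, 26722 probes (64.9%) remained that 4 or more arrays showed well above background in Cy5, and a gene took its brightest probe, which left 18212 genes. Groups came from the treatment labels, and replicate numbers follow accession order. Differences are Fzd8-CRD minus control. limma's moderated test was fitted over all genes with Benjamini-Hochberg adjustment, after a test on simulated data. The labels describe the reference RNA in conflicting ways. The number of arrays limits the precision.

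Members and lists were chosen with earlier results of these data known. Genes named are the members, up to 4 called genes with the smallest p and up to 2 others with the largest difference per list, all PDGF, RGS and channel relatives, and the 5 nearest profiles of Rgs5 and of Pdgfrb; exceptions are stated, the epithelial marker list among them. Promoters are RefSeq's (GRCm38.p6; 8 of 10 members matched, by symbol). Alternatives covered background correction, the scanner's and deposited ratios, scaling, filters, probe averaging, array weights, slide as a random block and leaving out each array.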

Additional observations from a re-analysis of the deposited data

Results flagged for a closer look

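Of 40 groups of values screened, 2 held an array far from the rest, where chance flags about 1 group in 20. Both were Mcam in control replicate 2. Its log2 ratio there was 3.25 against 3.83 to 3.86 on the other control arrays, and its log2 Cy5 was 11.03 against 11.95 to 12.04. Without this array the Mcam differences were -0.22 by the ratio and 0.07 by Cy5.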

How the results depend on the processing

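Over the alternatives run, the log2 ratio difference ranged over -3.29 to -1.58 for Kcnj8, -2.09 to -0.83 for Rgs4, -3.21 to -0.45 for Rgs5 and -2.54 to -0.95 for Abcc9, given as a description since the members were chosen on it. The genes called by the ratio were 2616 in the main analysis, 1626 after scaling arrays to a common spread, 6920 with array weights, 5503 with slide as a random block (consensus correlation -0.17), and 354 when the most alike arrays of each group were averaged, which was added after seeing the data; leaving out 1 array gave 1341 (without control replicate 3) to 3088 (without control replicate 2). By Cy5 they were 3426, against 7327 with weights, 5245 with the slide block, 1197 with pairs averaged and 2068 to 3468 with 1 array left out. Pericyte genes called by the ratio were 4, against 2 when all arrays had to be above background. They were 3 after scaling, 5 with array weights and 4 to 5 with 1 array left out. On the scanner's and the deposited ratio the count stayed 4, but it held Des as lower (-1.45 and -1.46) and not Rgs5 (-0.45 on both). By Cy5 the pericyte genes called were 4, against 2 with that filter on all arrays, 2 with pairs averaged and 3 to 4 with 1 array left out. With a gene's probes averaged the Cy5 count was also 4, but it held Pdgfb as higher (1.15) and not Abcc9 (-0.46). The Cy5 result of Abcc9 was weaker in 11 of 16 alternatives, and did not pass without the filter on dim probes. Other mural genes called were 8, against 5 on the scanner's ratio, 5 on the deposited one, 3 with the filter, 2 with pairs averaged and 7 to 10. Signs turned for Mcam at 0.27 on the scanner's ratio, 0.27 on the deposited one, 0.13 with no background correction and 1.61 after scaling, Cspg4 at 0.050 with probes averaged and 0.23 without control replicate 2, Pdgfb at -0.12 with weights and -0.080 without Fzd8-CRD replicate 4, and Des at 0.087 without control replicate 2. With 1 array left out, Cspg4 ranged over -0.47 to 0.23, Pdgfb over -0.080 to 0.19 and Des over -0.20 to 0.087. The stricter filter tested fewer genes (13769) and averaging pairs left fewer samples. No slide held both groups, so the slide block cannot separate slide from treatment. With the slide block the SE of the Rgs5 ratio difference was 0.35, against 0.42 in the main analysis. For the other alternatives the cause was not tested. Dim probes limit Rgs4, Abcc9 and Des, whose signal in Fzd8-CRD cells lies near background. No paired analysis was possible because the replicate numbers only follow accession order.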
